A study of Rattus norvegicus with 12 samples.

Results

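The genes described here are the interleukin-6 (IL-6) family ligands Il6, Osm, Lif, Il11 and Clcf1, the receptor subunits Il6st, Il6r, Osmr and Lifr, and the feedback inhibitor Socs3. They were taken from the count table by symbol, and all 10 were found once among its 34599 genes and passed the filter on low counts that left 15101 genes. Total RNA was sequenced from the left ventricle of 12 rats, 4 in each of 3 groups (Sham, MI, iCarP+/Light+), at day 1 after surgery. All were male SD rats under general anesthesia with an opened chest and pericardium. Sham rats received no ligation, while the left anterior descending coronary artery was ligated in MI and iCarP+/Light+ rats. In iCarP+/Light+ rats, Chlorella, a green alga, was also injected into the infarcted wall, a biodegradable polyester patch holding a tapered optical fiber (iCarP) was glued onto the epicardium, and the heart was illuminated. MI rats received none of alga, patch, adhesive and light, so these components cannot be told apart, and iCarP+/Light- rats were not analysed here. The labels describe the harvested tissue as the MI region and give no pooling of animals.

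Members of the IL-6 family are secreted proteins that act through receptor complexes containing gp130, the product of Il6st. IL-6 first binds its own receptor, encoded by Il6r, LIF uses gp130 with the LIF receptor, and oncostatin M, encoded by Osm, uses gp130 with the oncostatin M receptor. The complexes activate JAK kinases, which phosphorylate STAT3, and STAT3 induces Socs3, whose product binds gp130 and shuts the signal down. In the heart this pathway is known for its part in the acute phase after infarction, in cardiomyocyte survival and in the dedifferentiation of cardiomyocytes under oncostatin M.

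Promoter sequence is shown for the ligands Il6 and Il11, which had the highest log2 changes of the 10 genes from Sham to MI, each against 4 reads summed over the Sham rats, to give the letters next to the starts of these inducible genes. RefSeq's GRCr8 table held a window for 7 of the 10 genes, and in these 2 alone the window adjoined the 5′ end of the listed gene. Each sequence is the 250 bases before the start, read 5′ to 3′ on the strand of the gene, with motif matches in capitals. The Il6 window is chr4:5894576-5894825 on the minus strand of GRCr8, and the Il11 window is chr1:78098372-78098621 on the plus strand.
Il6: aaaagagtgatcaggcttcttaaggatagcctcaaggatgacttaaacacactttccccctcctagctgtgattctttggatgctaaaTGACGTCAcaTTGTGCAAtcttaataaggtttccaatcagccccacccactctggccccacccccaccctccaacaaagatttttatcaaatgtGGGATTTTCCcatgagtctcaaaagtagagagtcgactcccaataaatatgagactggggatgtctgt
Il11: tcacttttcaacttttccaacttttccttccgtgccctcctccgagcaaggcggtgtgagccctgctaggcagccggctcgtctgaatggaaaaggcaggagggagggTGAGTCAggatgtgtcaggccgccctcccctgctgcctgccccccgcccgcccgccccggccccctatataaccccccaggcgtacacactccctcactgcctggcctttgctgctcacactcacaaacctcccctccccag
Both strands were searched for 6 motifs, and no matches overlapped each other. In Il6, the CRE letters TGACGTCA lay 162 to 155 bases before the start, the C/EBP letters TTGNGCAA 152 to 145 bases before it, and the kappaB letters (GGGA, any base, TTTCC) 68 to 59 bases before it. Among the 33469 windows of this length in the table, 1.59%, 2.29% and 0.314% held these letters. In Il11, the AP-1 letters TGANTCA lay 142 to 136 bases before the start, and 6.34% of windows held them. The STAT letters TTCNNNGAA (7.67% of windows) and the TATA letters TATAAA (12.9%) had no match in either sequence.

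Libraries held 14064414 to 17136958 counted reads, and 3 counts, taken as the floor of detection, corresponded to 0.144 to 0.228 CPM. CPM, the unit of edgeR's cpm function, is a count relative to the library total as scaled by the TMM method, and RPKM is this value per 1000 bases of the listed gene. The cardiomyocyte markers were all detected in every group, with a summed level of 37434 to 42099 CPM in Sham, 2550 to 5170 CPM in MI and 2472 to 6178 CPM in iCarP+/Light+ rats. Mitochondrial genes took 22.8% to 28.9% of counts in Sham rats and 7.14% to 14.2% in the rats with ligation. In such bulk tissue, fewer cells of a type and less RNA per cell cannot be told apart.

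Log2 changes are given with their standard error (SE). Of the 10 genes, 8 rose and 1 fell from Sham to MI, with an adjusted p below 0.05 in edgeR's quasi-likelihood test over all genes. Among all genes tested 30.2% were higher and 33.6% lower in that comparison. From MI to iCarP+/Light+ 4 rose, namely Il6, Osm, Lif and Socs3, and 0 fell, against 11.6% higher and 2.01% lower among all genes. The 0 held also at an unadjusted p below 0.05 in edgeR, and DESeq2 and limma-voom likewise found 0 lower. From Sham to iCarP+/Light+ 8 rose and 1 fell, against 33.5% and 33% of all genes. Counted in either direction, the background was 63.8%, 13.6% and 66.5% of all genes in the 3 comparisons. MI rats did not overlap with Sham rats for 8 genes that were higher and 1 that was lower, against 27.6% and 31.4% of all genes, 59% together. From MI to iCarP+/Light+ 5 of the 10, Osmr besides the 4 named, were higher without overlap and 0 lower, against 12.1% and 4.37% of all genes, 16.4% together. All 10 separated Sham from iCarP+/Light+ rats, 9 higher and 1 lower, against 31.9% and 31.6% of all genes, 63.5% together. The median log2 change of the 10 genes was 3.12, 0.82 and 4.68 in the 3 comparisons, beside -0.06, 0.01 and 0.02 over all genes. The 5 ligand genes had fewer than 10 counts in at least 1 Sham rat and passed the filter through the groups with ligation, so the counts are given as a description. The first and the second comparison share the 4 MI rats.

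**Figure D1:**
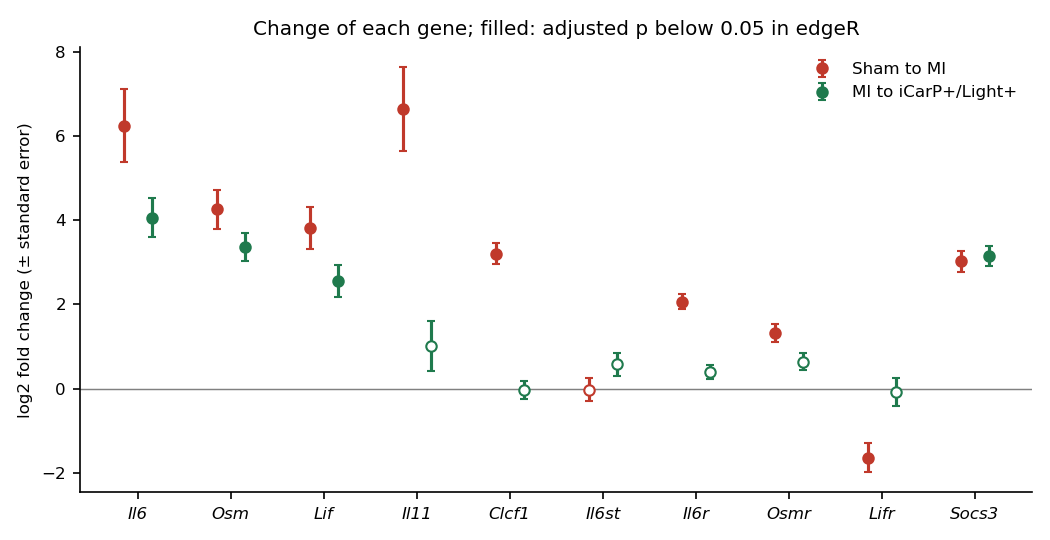
Log2 change (y axis, with the standard error) of the 10 genes from Sham to MI (red) and from MI to iCarP+/Light+ (green). Filled points have an adjusted p below 0.05 in edgeR, which in the second comparison are Il6 (4.06), Osm (3.36), Lif (2.56) and Socs3 (3.16).

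Il6, listed as ENSRNOG00000010278 on chromosome 4 from 3043231 to 3047807 in the files' build rn6, encodes the founding cytokine of the family. It was read 4, 0, 0 and 0 times in Sham rats 1, 2, 3 and 5. In MI rats 1, 3, 4 and 5 its level was 5.55, 8.68, 9.12 and 1.17 CPM, the last from 22 counts. Among iCarP+/Light+ rats 1, 2, 4 and 5 the level was 93.4, 119.8, 85.4 and 110.4 CPM. Il6 was thus at or near 0 in Sham rats, low in MI rats with rat 5 below the others, and high in all iCarP+/Light+ rats, and no groups overlapped. The log2 change was 6.26 (SE 0.86, edgeR adjusted p = 3.22e-05) from Sham to MI and 4.06 (SE 0.46, edgeR adjusted p = 7.22e-05) from MI to iCarP+/Light+, a 16.7-fold rise. Counts summed over the groups gave a ratio of MI to Sham of 83.8 with a 95% exact binomial interval of 32.5 to 309, and of iCarP+/Light+ to Sham of 1415 (553 to 5197), intervals that cover counting error only. Without Sham rat 1 no Sham library held a read of Il6, and the fitted log2 change of 9.64 from Sham to MI is then set by the prior count.

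Osm (ENSRNOG00000024390) and Lif (ENSRNOG00000007002) are neighbors on the plus strand of chromosome 14, from 84465515 to 84470409 and from 84482674 to 84500642, with 12264 bases between them. Osm encodes oncostatin M, a cytokine made mainly by leukocytes. Its level was 0.80, 0.48, 0.076 and 0.37 CPM in Sham rats 1, 2, 3 and 5, and 9.0, 9.66, 10.9 and 4.42 CPM in MI rats 1, 3, 4 and 5. Rats 1, 2, 4 and 5 of the iCarP+/Light+ group had 58.8, 88.6, 69.9 and 131.9 CPM. The order of the groups was that of Il6 with no overlap, and MI rat 5 was again the lowest MI rat. Osm rose by a log2 change of 4.27 (SE 0.47, edgeR adjusted p = 4.64e-06) from Sham to MI and by another 3.36 (SE 0.34, edgeR adjusted p = 3.12e-05) to iCarP+/Light+, a 10.3-fold rise.

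Lif encodes leukemia inhibitory factor, known to act on cardiomyocytes and stem cells. It was at 0.36, 0.27, 0.76 and 0.37 CPM in Sham rats 1, 2, 3 and 5, the third of these from 10 counts. In MI rats 1, 3, 4 and 5 it was at 3.16, 12, 5.15 and 4.58 CPM, so that rat 3 stood above the other MI rats. Rats 1, 2, 4 and 5 of the iCarP+/Light+ group had 26.9, 52.9, 29.1 and 37.7 CPM. All rats with ligation were above all Sham rats, and all iCarP+/Light+ rats were above all MI rats. The log2 change was 3.81 (SE 0.50, edgeR adjusted p = 2.08e-05) from Sham to MI and 2.56 (SE 0.38, edgeR adjusted p = 5.11e-04) from MI to iCarP+/Light+, a 5.89-fold rise.

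Il11 (ENSRNOG00000017386, chromosome 1 from 72635267 to 72643255) encodes a cytokine known for its action on fibroblasts. It had 0, 2, 0 and 2 counts in Sham rats 1, 2, 3 and 5. Its level in MI rats 1, 3, 4 and 5 was 2.11, 21.3, 5.99 and 2.77 CPM. The iCarP+/Light+ rats 1, 2, 4 and 5 had 13.6, 22.7, 14.9 and 13.5 CPM. The iCarP+/Light+ rats were closely grouped, and MI rat 3 lay inside their range while the other MI rats lay below it. Il11 rose from Sham to MI by a log2 change of 6.65 (SE 0.99, edgeR adjusted p = 6.64e-05), or 5.50 without MI rat 3, and the ratio of summed counts was 108.5 (95% exact binomial interval 42.2 to 399). From MI to iCarP+/Light+ the log2 change was 1.01 (SE 0.58, edgeR adjusted p = 0.311), which was within the spread between rats. Without MI rat 3 it was 2.16 (adjusted p = 0.00497, edgeR), and limma-voom with all rats gave 1.63 (adjusted p = 0.0421).

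Clcf1 (ENSRNOG00000018752, chromosome 1 from 219468675 to 219472654) encodes cardiotrophin-like cytokine factor 1. It was measured at 0.51, 0.68, 1.06 and 1.11 CPM in Sham rats 1, 2, 3 and 5 and at 7.80, 8.25, 8.84 and 6.28 CPM in MI rats 1, 3, 4 and 5. In iCarP+/Light+ rats 1, 2, 4 and 5 it was at 5.95, 7.74, 7.86 and 8.86 CPM. Clcf1 was raised in every rat with ligation, and the MI and iCarP+/Light+ ranges lay over each other. The log2 change was 3.21 from Sham to MI (SE 0.26, edgeR adjusted p = 4.08e-07) and -0.04 from MI to iCarP+/Light+ (SE 0.22, edgeR adjusted p = 0.941).

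**Figure D2:**
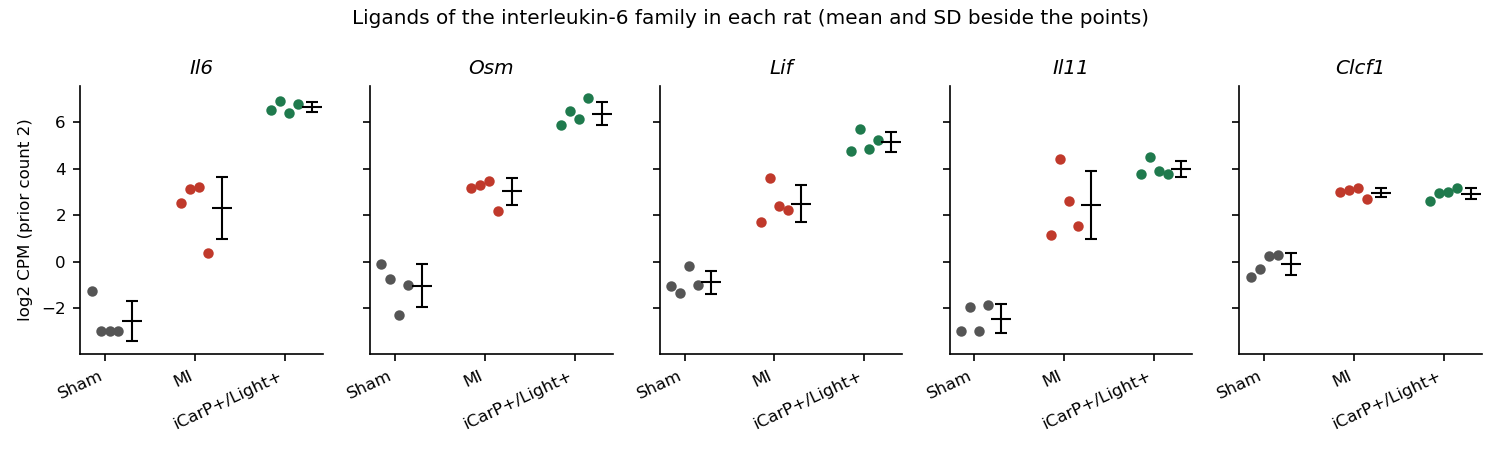
Level of the 5 ligand genes in each rat on a log2 scale (log2 CPM with a prior count of 2, y axis) in Sham (gray), MI (red) and iCarP+/Light+ (green), with the group mean and SD in black beside the 4 points. For Il6, Osm and Lif the 3 groups do not overlap, for Il11 MI rat 3 lies among the iCarP+/Light+ rats, and for Clcf1 the MI and iCarP+/Light+ rats lie at the same height.

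All 4 receptor subunit genes lie on chromosome 2. Il6st (ENSRNOG00000013963, from 44289393 to 44314944) encodes gp130, the signaling subunit shared by the family. Its level was 115, 120.8, 119 and 112.1 CPM in Sham rats 1, 2, 3 and 5. It was 136, 113, 48.8 and 159 CPM in MI rats 1, 3, 4 and 5, and 137, 187, 139.6 and 216 CPM in iCarP+/Light+ rats 1, 2, 4 and 5. The Sham rats were tightly grouped, and MI rat 4 had less than any other rat. Il6st did not pass the threshold in any of the 3 comparisons in edgeR, with a log2 change of -0.03 (SE 0.27, edgeR adjusted p = 0.928) from Sham to MI, 0.57 (SE 0.28, edgeR adjusted p = 0.216) from MI to iCarP+/Light+ and 0.54 (SE 0.28, edgeR adjusted p = 0.0999) from Sham to iCarP+/Light+. Every iCarP+/Light+ rat was nevertheless above every Sham rat, and the latter change passed the threshold in edgeR without MI rat 4 in the model (0.54, adjusted p = 0.00800), with only the rats of the compared groups (0.55, adjusted p = 0.00767), with total counts alone (0.84, adjusted p = 0.0176) and with a replicate block (0.73, adjusted p = 0.0275).

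Il6r (ENSRNOG00000020811, from 189205701 to 189254628) encodes the subunit that binds IL-6 itself, on cells or, after shedding, in solution. It was at 18.4, 17.7, 18.7 and 24.5 CPM in Sham rats 1, 2, 3 and 5, at 92.9, 78.3, 84.4 and 77.7 CPM in MI rats 1, 3, 4 and 5 and at 78.5, 107.3, 103.4 and 146 CPM in iCarP+/Light+ rats 1, 2, 4 and 5. The rats with ligation were far above the Sham rats, and the MI and iCarP+/Light+ groups overlapped. From Sham to MI Il6r rose by a log2 change of 2.07 (SE 0.18, edgeR adjusted p = 6.24e-07), and from MI to iCarP+/Light+ the value was 0.39 (SE 0.17, edgeR adjusted p = 0.163), or 0.51 (adjusted p = 0.0346) without iCarP+/Light+ rat 1.

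Osmr (ENSRNOG00000033192, from 56110777 to 56151531 on the minus strand) and Lifr (ENSRNOG00000011696, from 56426367 to 56489415 on the plus strand) are separated by 274835 bases and encode the partners of gp130 for oncostatin M and for LIF. Osmr was at 19.6, 21.6, 28.2 and 24.7 CPM in Sham rats 1, 2, 3 and 5. It was at 73.2, 63.8, 33.8 and 65.0 CPM in MI rats 1, 3, 4 and 5 and at 78.5, 91.2, 88.7 and 107.3 CPM in iCarP+/Light+ rats 1, 2, 4 and 5. The 3 groups did not overlap, and MI rat 4 was the lowest of the rats with ligation. Osmr rose by a log2 change of 1.33 (SE 0.21, edgeR adjusted p = 1.03e-04) from Sham to MI. From MI to iCarP+/Light+ the value was 0.63 (SE 0.20, edgeR adjusted p = 0.0578), just outside the threshold. With all rats kept it passed in DESeq2 (0.58, adjusted p = 0.0459) and limma-voom (0.68, adjusted p = 0.0419). In edgeR it was 0.75 (adjusted p = 0.0429) without MI rat 1 and 0.70 (adjusted p = 0.0490) without iCarP+/Light+ rat 1, and over all alternatives the adjusted p lay between 0.0419 and 0.223.

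Lifr was the single gene of the 10 that fell after ligation. It was at 57.1, 53.1, 68.6 and 48.0 CPM in Sham rats 1, 2, 3 and 5, at 21.3, 19.0, 5.71 and 26.4 CPM in MI rats 1, 3, 4 and 5 and at 15.7, 20.2, 11.7 and 21.0 CPM in iCarP+/Light+ rats 1, 2, 4 and 5. All Sham rats were above all rats with ligation, and MI rat 4 was again the lowest. The log2 change was -1.64 (SE 0.35, edgeR adjusted p = 0.00101) from Sham to MI and -0.08 (SE 0.34, edgeR adjusted p = 0.912) from MI to iCarP+/Light+. With libraries scaled by total counts alone, which moves all genes, the first value was -1.04 (edgeR adjusted p = 0.0160), and that of Osmr was 1.92. In the same libraries the cardiomyocyte markers fell (7 of 8 lower and 1 higher from Sham to MI), as did 6 of 6 endothelial markers tested and 5 of 8 fibroblast markers, while 1 fibroblast marker rose, against 33.6% of all genes lower and 30.2% higher, and their part in the level of Lifr was not tested. MI rat 4 had the lowest endothelial marker sum of the 12 rats, 688 CPM, against 898 to 1087 CPM in the other MI rats.

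**Figure D3:**
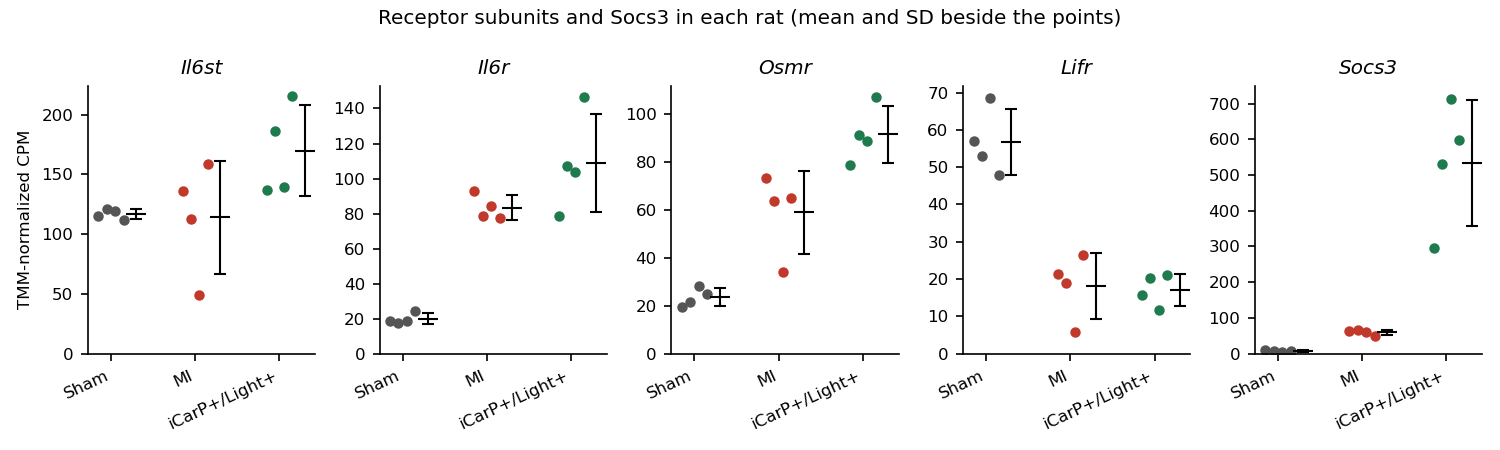
TMM-normalized CPM (y axis, from 0, with its own scale in each panel) of the receptor subunit genes and Socs3 in each rat, with the group mean and SD in black beside the 4 points. Il6r and Osmr are higher and Lifr is lower in the rats with ligation than in Sham rats, MI rat 4 has the lowest Il6st and Lifr, and Socs3 in iCarP+/Light+ rats (295.9 to 714 CPM) lies above all other rats.

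The balance between receptor subunits was compared within each library as a ratio of reads per base, which no scaling of the libraries can change. Reads per base of Osmr were 0.64 to 0.96 times those of Lifr in Sham rats, 4.58 to 11.0 times in MI rats and 8.40 to 14.1 times in iCarP+/Light+ rats. Per base, Osmr thus went from below Lifr in every Sham rat to several times above it in every rat with ligation. Which gene is higher per base depends on the listed lengths, 2894 bases for Osmr and 5388 bases for Lifr. The lengths cancel from the differences between groups. The mean log2 ratio differed by 3.12 between Sham and MI rats (p = 0.0286 in a two-sided exact permutation test, Benjamini-Hochberg adjusted to 0.0429 over 9 comparisons), with all 4 MI rats above all 4 Sham rats. This p is the smallest that 4 rats against 4 can give. Osmr was higher and Lifr lower in MI than in Sham rats, each without overlap. The separation of this ratio and its p therefore followed from those values, and the test adds nothing to them. The same holds for this ratio between Sham and iCarP+/Light+ rats. Between MI and iCarP+/Light+ rats the difference was 0.60 (exact permutation test, p = 0.114, adjusted 0.147).

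Il6r stood at 0.0997 to 0.148 times Il6st in Sham rats, 0.33 to 1.17 times in MI rats and 0.39 to 0.50 times in iCarP+/Light+ rats. The value of 1.17 belonged to MI rat 4, and the other MI rats lay close to the iCarP+/Light+ rats. The mean log2 ratio was 2.24 higher in MI than in Sham rats (exact permutation test, p = 0.0286, adjusted 0.0429), and -0.32 separated iCarP+/Light+ from MI rats (exact permutation test, p = 0.6, adjusted 0.675). Osmr stood at 0.18 to 0.26 times Il6st in Sham rats, and at 0.44 to 0.75 times in MI and 0.53 to 0.68 times in iCarP+/Light+ rats. That ratio was 1.44 higher on the log2 scale in MI than in Sham rats (exact permutation test, p = 0.0286, adjusted 0.0429), and 0.01 separated iCarP+/Light+ from MI rats (exact permutation test, p = 0.943). MI rat 4, low in both Il6st and Osmr, had the highest ratio, 0.75, against 0.44 to 0.61 in the other MI rats. From Sham to iCarP+/Light+ the 3 ratios differed by 3.71, 1.92 and 1.45 on the log2 scale, each without overlap (exact permutation test, p = 0.0286, adjusted 0.0429).

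**Figure D4:**
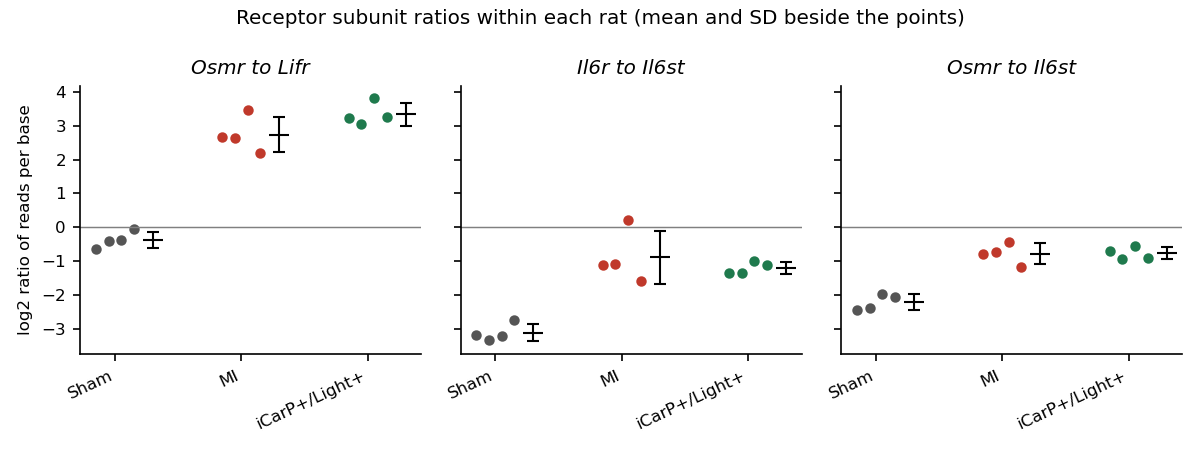
Log2 ratio of reads per base between pairs of receptor subunit genes (y axis, 0 marks equal reads per base) in each rat, with the group mean and SD in black. All rats with ligation lie above all Sham rats in the 3 panels, and the MI and iCarP+/Light+ rats overlap in each.

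Socs3 (ENSRNOG00000002946, chromosome 10 from 106975178 to 106976040 on the minus strand) encodes the inhibitor that STAT3 induces against gp130 signaling. It was at 9.32, 7.10, 5.62 and 7.37 CPM in Sham rats 1, 2, 3 and 5 and at 63.9, 66.2, 60.0 and 49.7 CPM in MI rats 1, 3, 4 and 5. In iCarP+/Light+ rats 1, 2, 4 and 5 it reached 296, 532, 714 and 597 CPM. The groups did not overlap, and the lowest iCarP+/Light+ rat, rat 1, was still far above the highest MI rat. The log2 change was 3.03 (SE 0.25, edgeR adjusted p = 5.28e-07) from Sham to MI and 3.16 (SE 0.24, edgeR adjusted p = 4.44e-06) from MI to iCarP+/Light+, an 8.14-fold and an 8.92-fold rise.

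Ordered by mean RPKM, which allows levels of different genes to be set side by side, Il6st was the highest of the 10 genes in Sham rats at 37.5 ± 1.26 RPKM (SD, n = 4). Lifr followed with 10.5 ± 1.63, Socs3 with 8.52 ± 1.77, Osmr with 8.13 ± 1.31 and Il6r with 4.32 ± 0.68 RPKM (SD, n = 4), and every ligand was below 0.5 RPKM in each Sham rat. The ranges of Lifr, Socs3 and Osmr overlapped with their neighbors in this order. In iCarP+/Light+ rats Socs3 led with 619.5 ± 204 RPKM (SD, n = 4), and Il6 came next with 97.9 ± 15.0 RPKM (SD, n = 4), above Il6st with 54.5 ± 12.3 RPKM (SD, n = 4). Osmr and Osm then stood at 31.6 ± 4.11 and 31.6 ± 11.6 RPKM (SD, n = 4), and Il6r at 23.7 ± 6.10 RPKM (SD, n = 4). Lif reached 16.5 ± 5.31 and Il11 9.57 ± 2.61 RPKM (SD, n = 4), while Clcf1 and Lifr were near 3 RPKM, and the ranges of Osmr, Osm, Il6r and Lif each overlapped with a neighbor in this order, as did those of Lif and Il11. The order puts Il6 above the receptor genes in iCarP+/Light+ rats, while in MI rats, at 1.12 to 8.73 RPKM, it was below Il6st, Il6r and Osmr in every rat. The model of Socs3 listed in the table is 863 bases long while RefSeq's gene spans 3397 bases, so its RPKM depends on the model used.

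Markers of other cells were read beside these levels. The 8 neutrophil markers summed to 7.73 to 12.4 CPM in Sham, 328 to 635 CPM in MI and 2205 to 6663 CPM in iCarP+/Light+ rats, none at 0 in any group, and 7 of 7 tested rose in both comparisons, against 30.2% of all genes from Sham to MI and 11.6% from MI to iCarP+/Light+, with 33.6% and 2.01% lower. Among iCarP+/Light+ rats the neutrophil sum was 2205, 3969, 5554 and 6663 CPM in rats 1, 4, 2 and 5. Osm, Il6st, Il6r and Osmr had the same order of the 4 rats, but the share of all genes with that order was not counted. None of these 4 genes had the order of the neutrophil sum in MI rats, which was 328, 400, 509 and 635 CPM in rats 3, 1, 5 and 4, as Il6st and Osmr were lowest in rat 4, Osm was lowest in rat 5 and Il6r was highest in rat 1. Among iCarP+/Light+ rats Clcf1 was also lowest in rat 1 and highest in rat 5, Lif and Socs3 were lowest in rat 1, and Lifr was highest in rat 5. In the same group Lif was highest in rat 2 and Socs3 in rat 4, and Lifr was lowest in rat 4. There Il6 was lowest in rat 4 and highest in rat 2, and Il11 was lowest in rat 5 and highest in rat 2. The 7 monocyte and macrophage markers counted summed to 380 to 605 CPM in Sham, 3779 to 6605 CPM in MI and 2842 to 4630 CPM in iCarP+/Light+ rats, with 6 of 7 higher and 0 lower from Sham to MI and 1 higher and 1 lower from MI to iCarP+/Light+. The 7 lymphocyte markers counted summed to 13.0 to 18.6 CPM in Sham, 16.9 to 29.5 CPM in MI and 14.9 to 20.7 CPM in iCarP+/Light+ rats, with 3 of 7 higher in the first comparison and 1 lower in the second. The 6 red blood cell genes summed to 7931 to 10670 CPM in Sham, 2522 to 7027 CPM in MI and 6252 to 17616 CPM in iCarP+/Light+ rats, with 4 of 6 lower in the first comparison and 4 of 6 higher in the second. Fibroblast and endothelial sums were 3989 to 4561 and 1613 to 1793 CPM in Sham, 1598 to 2033 and 688 to 1087 CPM in MI, and 1077 to 2014 and 918 to 1034 CPM in iCarP+/Light+ rats, with Cldn5 at 0 throughout. The part of these cells in the levels of the ligands, receptors and Socs3 was not tested.

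Other ligands and receptors of the family, with the receptor sheddases, were read from a list of 13 symbols, of which 9 had enough counts. From Sham to MI 3 were higher and 5 lower, and from MI to iCarP+/Light+ 2 were higher and 0 lower in edgeR, with a median log2 change of -0.38 and 0.13. Over all genes tested 30.2% were higher and 33.6% lower, then 11.6% and 2.01%, with medians of -0.06 and 0.01. Scaled by total counts alone, the split from Sham to MI was 4 higher and 3 lower, against 51% and 18.4% of all genes under that scaling. Ebi3, a receptor-like subunit secreted with the products of Il27 or Il12a, was at 0.36 to 2.51 CPM in Sham, 5.07 to 18.3 CPM in MI and 140 to 526 CPM in iCarP+/Light+ rats. It rose by a log2 change of 2.94 (adjusted p = 5.73e-04, edgeR) and then by 5.15 (adjusted p = 4.15e-05, edgeR), while its partner Il27 had at most 4 counts in any rat. Adam17, the sheddase that releases the IL-6 receptor from cells, rose by 0.65 (adjusted p = 5.05e-04) from Sham to MI and by 0.77 (adjusted p = 9.35e-04) to iCarP+/Light+ in edgeR, from 138 to 168 CPM in MI to 202 to 297 CPM. Cntf, a neurotrophic ligand, rose from Sham to MI by 0.74 (adjusted p = 0.0238). In the same comparison Cntfr, its receptor, fell by 1.94 on the log2 scale (adjusted p = 0.00197) and Ctf1, which encodes cardiotrophin-1, fell by 1.44 (adjusted p = 6.55e-04, edgeR). Without Sham rat 1, 5 rather than 8 genes of this list passed the threshold from Sham to MI.

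Of 15 kinases, STATs and adaptors, 14 were tested, and 6 were higher and 4 lower from Sham to MI, with a median log2 change of 0.20. From MI to iCarP+/Light+ 6 were higher and 0 lower, with a median of 0.35. The shares over all genes were again 30.2% and 33.6%, then 11.6% and 2.01%, so the share of lower genes after ligation was near the background. The directions in this list depended on the scaling, since with total counts alone 9 were higher and 0 lower from Sham to MI (51% and 18.4% of all genes), and 3 higher and 1 lower from MI to iCarP+/Light+ (7.97% and 18% of all genes). Jak2, a kinase bound to gp130, rose by 1.51 (adjusted p = 7.60e-07, edgeR) from Sham to MI, and Jak3 by 1.15 (adjusted p = 2.93e-05, edgeR). The adaptor gene Gab1 fell by 0.96 (adjusted p = 0.00236) and Ptpn11, which encodes the phosphatase SHP2, by 0.70 (adjusted p = 4.13e-04, edgeR) on the log2 scale. Gab1 then rose from MI to iCarP+/Light+ by 1.41 (adjusted p = 0.00103) and Stat6, the STAT of interleukin-4 signaling, by 1.20 (adjusted p = 0.00265, edgeR). Stat3, named here after its values were seen, was at 226 to 264 CPM in Sham, 259 to 298 CPM in MI and 341 to 416 CPM in iCarP+/Light+ rats. Its log2 change was 0.22 (adjusted p = 0.0778) and then 0.40 (adjusted p = 0.0203, edgeR), much smaller than that of Socs3. The count of genes that rose from MI to iCarP+/Light+ was 3 instead of 6 without iCarP+/Light+ rat 2, without iCarP+/Light+ rat 5, and with only the rats of the compared groups in the model.

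Of 14 genes for inhibitors other than Socs3, all tested, 6 were higher and 4 lower from Sham to MI and 5 higher and 0 lower from MI to iCarP+/Light+ in edgeR, with a median log2 change of 0.13 and 0.39. The shares over all genes were 30.2% higher and 33.6% lower from Sham to MI and 11.6% and 2.01% from MI to iCarP+/Light+. Scaled by total counts alone, the split from Sham to MI was 9 higher and 3 lower, where 51% and 18.4% of all genes were. Ptpn6, a phosphatase of blood cells, rose by 2.76 (adjusted p = 9.99e-08, edgeR) and Ptpn1 by 1.52 (adjusted p = 4.50e-05, edgeR) from Sham to MI. Cish and Socs2, known as STAT5 targets, fell by 2.53 (adjusted p = 2.02e-06) and 2.48 (adjusted p = 8.77e-08, edgeR) on the log2 scale. Cish rose from MI to iCarP+/Light+ by 1.68 (adjusted p = 4.87e-04, edgeR) and Ptpn1 by 1.60 (adjusted p = 2.43e-04, edgeR). Cish nonetheless remained at 26.2 to 45.2 CPM, below its 54.3 to 70.9 CPM in Sham rats. Socs3, which rose in both steps, thus differed in direction from Socs2 and Cish after ligation.

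Of 25 known STAT3 target and acute phase genes, 20 were tested. From Sham to MI 18 were higher and 0 lower, with a median log2 change of 2.10, and from MI to iCarP+/Light+ 14 were higher and 1 lower, with a median of 1.43. Over all genes the shares were 30.2% higher and 33.6% lower in the first comparison and 11.6% and 2.01% in the second. With total counts alone the counts were 20 and 0, then 12 and 1, against 51% and 18.4%, then 7.97% and 18%, of all genes. The list is given as a description, since several of its genes are known to respond to other signals as well, and some are stored in neutrophil granules. Mt2A, a metallothionein, rose from Sham to MI by 5.28 (adjusted p = 5.62e-08, edgeR). Serpina3n, a protease inhibitor of the acute phase, rose by 5.64 (adjusted p = 0.00521, edgeR), with a wide range of 2.77 to 51.7 CPM in MI rats. Lcn2, which encodes an iron-binding protein also stored in neutrophil granules, was at 11.2 to 20.9 CPM in Sham and 14.4 to 28.3 CPM in MI rats, and at 409 to 1046 CPM in iCarP+/Light+ rats, a log2 change of 5.13 from MI (adjusted p = 3.48e-06, edgeR). Pim1, a survival kinase, went from 15.3 to 25.1 CPM in MI to 113 to 358 CPM in iCarP+/Light+ rats, a log2 change of 3.69 (adjusted p = 5.85e-06, edgeR). Cp, the gene of the ferroxidase ceruloplasmin, was the gene that fell, by 0.98 on the log2 scale (adjusted p = 0.00720, edgeR). The liver acute phase genes Fga, Fgb and Fgg had at most 1, 2 and 5 counts in any rat.

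**Figure D5:**
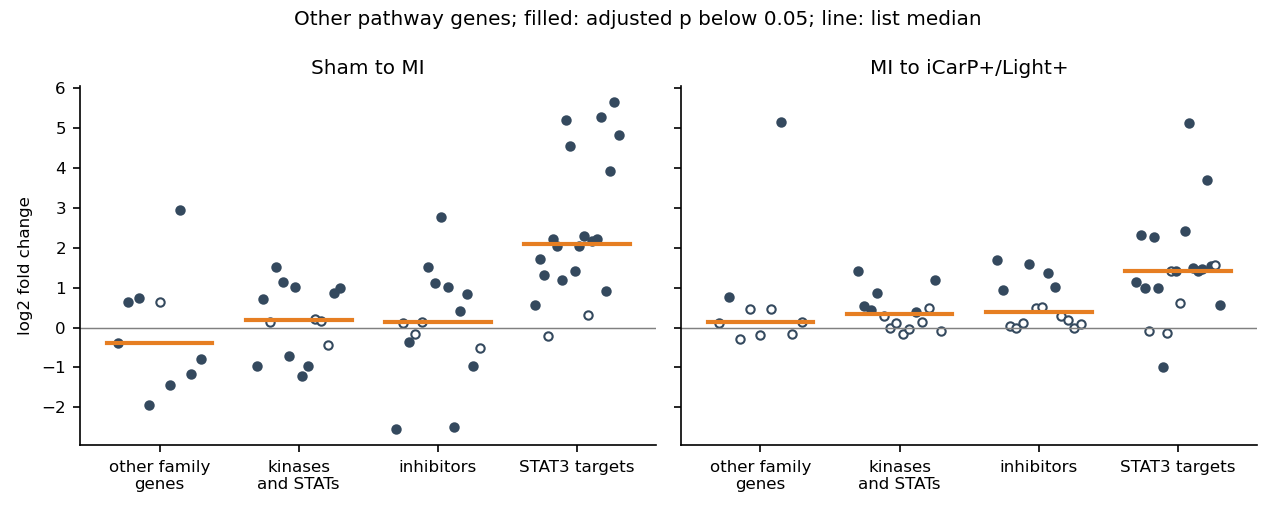
Log2 change (y axis) of the tested genes of the 4 lists of pathway genes from Sham to MI (left) and from MI to iCarP+/Light+ (right). Each point is a gene, filled where its adjusted p is below 0.05 in edgeR, and the line is the median of the list, which for the STAT3 targets is 2.10 on the left and 1.43 on the right.

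The genes most like each ligand and Socs3 over the 12 rats were sought among 13650 protein-coding genes by the root-mean-square difference of centered log2 CPM. For Il6, whose own spread by this measure was 3.86, they were Cyp4f18 (0.78), F2rl2 (0.88) and Aqp9 (0.91). For Osm (spread 3.10) they were Slc16a3 (0.53), Serpinb1a (0.60) and Galnt3 (0.64), and for Lif (spread 2.53) Pygl (0.57), Best1 (0.58) and Nlrc4 (0.60). For Socs3 (spread 2.52) they were Treml2 (0.36), Plek (0.37) and Nod2 (0.38). Il11 (spread 2.87) was nearest to Car12 (0.70), Cgm4 (0.72) and Mt2A (0.72), and Clcf1 (spread 1.47) to Slc39a8 (0.20), Sh3bp2 (0.22) and P2ry6 (0.25). Among the receptor genes, Il6st (spread 0.50) was nearest to Abcc1 (0.11), Cramp1 (0.11) and Zc3h12c (0.14), Il6r (1.09) to Actg1 (0.15), Clip2 (0.15) and Tkt (0.16), Osmr (0.86) to Grk3 (0.20), Uhrf1bp1l (0.21) and Xpo6 (0.22), and Lifr (1.00) to Rnf152 (0.15), Nav3 (0.20) and Fry (0.23). These distances describe the same 12 libraries and carry no test.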

How the data were processed

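The authors deposited raw read counts per gene for each of the 12 rats, without normalization, with each gene's position and length. The submitters' processing notes name HISAT2, featureCounts and the build rn6. Versions, annotation release and strand setting are not given in the sources used here, and no other listed gene overlaps the 10 genes. The libraries were made with a NEBNext Ultra RNA kit, and reads carry no molecular identifiers.

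Tests were run with edgeR 4.0.16 under R 4.3.3 (filterByExpr with a minimum count of 10, TMM, quasi-likelihood test, 1 mean per group over all 12 rats, Benjamini-Hochberg adjustment over 15101 genes, threshold 0.05). Standard errors were derived from the F statistic. RPKM is the TMM-normalized CPM per 1000 bases of listed gene length. Subunit ratios (prior count 0.5) were compared by two-sided exact permutation tests with scipy 1.17.1, and plots were drawn with matplotlib 3.10.9. Rats sharing a number are separate animals, and no block was used. The p-values measure the spread between the rats of a group.

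Alternatives were DESeq2's size factors, total counts alone, DESeq2 1.42.0, limma-voom (limma 3.58.1), 2 other filters, no mitochondrial genes, the compared groups alone, a replicate block, and each rat left out in turn.

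All 10 genes are named. From each of 4 pathway lists, the 2 highest and 2 lowest log2 fold changes among genes past the threshold and without overlap between groups are named in the comparisons of Sham with MI and of MI with iCarP+/Light+, and for each of the 10 genes the 3 genes most like it. Genes, lists and tests were chosen with earlier results of these data known. Symbols of the lists not found in the table, and iCarP+/Light- rats, were not analysed here.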

Additional observations from a re-analysis of the deposited data

Results flagged for a closer look

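For 2 genes a single Sham rat was separated from the other 3 by a gap whose share of the group's range was above Dixon's critical value at 95% on the log2 scale. Il6 in Sham rat 1 (share 1) was 0.29 CPM from 4 counts, against 0 in the other Sham rats. As the others are tied at 0, any read in this rat would give a share of 1. Il6r in Sham rat 5 (share 0.83) was 24.5 CPM against 17.7 to 18.7 CPM in the other Sham rats. With 39 groups examined, chance alone gives 1.95 such cases, a rate that does not hold for tied values such as those of Il6.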

How the results depend on the processing

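Depth limits the ligand genes in Sham rats, where counts of 0 to 15 leave the size of the rises from Sham uncertain but not their side of the threshold. Whether the smaller changes of Il6st, Il6r and Osmr passed the threshold depended on the rats kept or the method. With all rats kept, 238 of 255 recomputed fold changes of the 10 genes kept their direction and side of the threshold, 7 passed it, 0 lost it and 10 reversed. With each rat left out, 348 of 360 kept both, 5 passed and 7 reversed. The log2 change from MI to iCarP+/Light+ stayed at 3.71 to 4.42 for Il6, 3.01 to 3.51 for Osm, 2.28 to 3.09 for Lif and 2.89 to 3.35 for Socs3, all past the threshold in every alternative in which the gene was tested. The reversals were of values near 0 that passed no threshold. Il6st from Sham to MI was 0.0372 with DESeq2's size factors, 0.57 with total counts alone, 0.0371 in DESeq2, 0.0014 without a filter, 0.0468 with at least 10 counts in every sample, 0.11 with only the compared groups, 0.0745 with the replicate block, and -0.225 to 0.23 with each rat left out, the highest without MI rat 4. Clcf1 from MI to iCarP+/Light+ was 0.0220 with the replicate block and -0.196 to 0.0628 with each rat left out. Lifr in the same comparison was 0.0699 in limma-voom, 0.10 with the replicate block and -0.38 to 0.15 with each rat left out. The cause was not tested.

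Requiring at least 10 counts in every sample left 5 of the 10 genes to test, and 4, 1 and 4 of them passed the threshold in the comparisons of Sham with MI, MI with iCarP+/Light+ and Sham with iCarP+/Light+, since the ligands were removed, and 1 for the other family genes from MI to iCarP+/Light+. The kinases and STATs past the threshold from MI to iCarP+/Light+ numbered 3 without a filter, 3 with only the compared groups and 3 with the replicate block. With each rat left out, 9 of the 10 genes passed from Sham to MI, 4 to 6 from MI to iCarP+/Light+ and 9 to 10 between Sham and iCarP+/Light+. The other family genes numbered 5 to 8 and 2 in the first 2 comparisons, the kinases and STATs 9 to 11 and 3 to 7, the inhibitors 8 to 10 and 5 to 7, and the STAT3 targets 18 and 12 to 16. The 9 subunit ratio comparisons kept direction and side of the threshold with a prior count of 2. With a rat left out no test was made. The difference between MI and iCarP+/Light+ then ran from -0.55 to 0.06 for Il6r to Il6st, positive without MI rat 4, from -0.12 to 0.13 for Osmr to Il6st and from 0.42 to 0.84 for Osmr to Lifr, and those from Sham kept their sign, at 1.32 or more. Scaling by total counts alone moved the all-gene median to 0.52, -0.25 and 0.33 in the 3 comparisons, and 30.7% rather than 85.2% of genes past the threshold from MI to iCarP+/Light+ were higher, 73.5% rather than 47.3% from Sham to MI and 64.7% rather than 50.3% from Sham to iCarP+/Light+.

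Same-numbered rats deviated from their group means with correlations over genes of -0.15 to 0.07. Differently numbered rats were not compared in this way, so whether the numbers mark a shared batch was not tested. With the replicate block, 9, 5 and 10 of the 10 genes passed the threshold in the 3 comparisons, against 57.6%, 8.6% and 60.6% of all genes, Il11 among them from MI to iCarP+/Light+ (1.93, adjusted p = 0.0335) and Il6st from Sham to iCarP+/Light+ (0.73, adjusted p = 0.0275).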
